A study of Mus musculus with 16 samples.

Results

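Metabotropic glutamate receptors are the G protein-coupled receptors for glutamate, and 6 of their genes, Grm2, Grm3, Grm4, Grm5, Grm7 and Grm8, were followed here through mouse cerebral cortex. They were taken by gene symbol from the 20436 genes listed in every library. The study measured cytoplasmic RNA and ribosome-protected fragments (footprints, the stretches of mRNA covered by translating ribosomes) from cortex of mice aged 28 to 35 days. All mice were of 1 strain, given as FVB.129P2-Pde6b+ Tyr c-ch//AntJ. The 4 genotypes were WT, Fmr1 KO, Cpeb1 KO and the Fmr1/Cpeb1 double KO (both genes lost), with 2 libraries per genotype and assay and 16 in all. Both hemispheres were homogenised in buffer with cycloheximide and harringtonine, and each cytoplasmic lysate was divided between the assays. The labels do not say whether the 2 libraries of a group came from separate animals or litters, so p-values measure the spread between these libraries, which may be technical.

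Grm5 belongs to group I of the family, which signals through Gq, phospholipase C and release of calcium from internal stores. Grm2 and Grm3 form group II, and Grm4, Grm7 and Grm8 belong to group III. Both of these groups act through Gi/o proteins, lower cyclic AMP and dampen transmitter release. Fmr1 encodes FMRP, an RNA-binding protein that holds back translation and is lost in fragile X syndrome. Cpeb1 encodes a protein that binds 3′ UTRs and controls poly(A) tail length and translation. In the mGluR theory of fragile X, stimulation of group I receptors triggers protein synthesis at synapses, and the loss of FMRP leaves that synthesis unchecked. The data allow the question of whether the receptor transcripts themselves, or the ribosomes on them, differ between the genotypes.

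RNA-seq libraries held 5423925 to 10246482 counts each and footprint libraries 16239703 to 24973757. Levels between libraries are given as CPM, counts scaled to a common library size by TMM. Fmr1 was at 87.0 to 116 CPM of RNA where it was intact and at 18.4 to 25.9 where it was deleted, and its footprints were at 94.8 to 108 and 5.33 to 8.69 CPM. Cpeb1 RNA was at 27.6 to 43.9 CPM where intact and 15.98 to 19.7 where deleted, with footprints at 33.4 to 36.7 and 7.30 to 7.73 CPM. Every library matched its label by both genes. Neuronal markers, including the cortical excitatory marker Slc17a7 (at least 1031 TPM of RNA in each library), were present. Among cerebellar markers, the granule cell genes Gabra6 and Cbln3 did not exceed 0.47 TPM in any library. Cbln1 was at 10.94 to 18.06 TPM of RNA and Pcp2 at 3.39 to 7.58 TPM. Markers of striatum and choroid plexus were also present, the latter at a summed RNA level of 36.5 to 791 TPM, almost all from Ttr.

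All 6 genes are protein-coding. In the RefSeq annotation of GRCm38.p6, Grm5 lies at chr7:87583981-88135063, Grm2 at chr9:106644534-106656109 and Grm3 at chr5:9485236-9725352. Of group III, Grm4 lies at chr17:27422387-27513826, Grm7 at chr6:110645349-111567230 and Grm8 at chr6:27275121-28135146. All 6 passed the filter on low counts in every fit, with 172 to 4176 counts per library in RNA-seq and 186 to 4938 in footprints.

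Grm5 was the most abundant of the 6 in cortex and Grm8 and Grm4 were the least, and the order was led by one gene from each group. On the TPM scale, which corrects for transcript length, Grm5 RNA was at 154.77 to 180.32 over the 8 libraries, with a mean of 166 ± 7.77 (SD, n = 8). Grm3, which is also found in astrocytes, was at 124 ± 10.4 TPM, and Grm7, a receptor of the presynaptic active zone, at 66.7 ± 4.68 TPM (SD, n = 8). The ranges of these 3 genes did not overlap. Grm2 RNA followed at 37.8 ± 6.09 TPM, Grm4 at 24.1 ± 4.95 TPM and Grm8 at 18.3 ± 2.04 TPM (SD, n = 8). Grm2 overlapped Grm4, and Grm4 overlapped Grm8, although Grm2 was above Grm4 in all 8 libraries and Grm4 above Grm8 in 7 of 8.

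Footprints put the same genes at the top and pulled the bottom of the list apart from the rest. Grm5 footprints were at 53.3 ± 4.94 TPM, Grm3 at 47.5 ± 5.92, Grm7 at 29.6 ± 2.61 and Grm2 at 25.1 ± 4.45 TPM (SD, n = 8). Grm8 and Grm4 were far lower, at 5.58 ± 0.955 and 5.24 ± 0.600 TPM (SD, n = 8), and did not reach the lowest Grm2 library at 18.25 TPM. Within the pairs Grm5 and Grm3, Grm7 and Grm2, and Grm8 and Grm4 the ranges overlapped. These means run over all genotypes, and libraries of one genotype are not independent of each other.

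**Figure D1:**
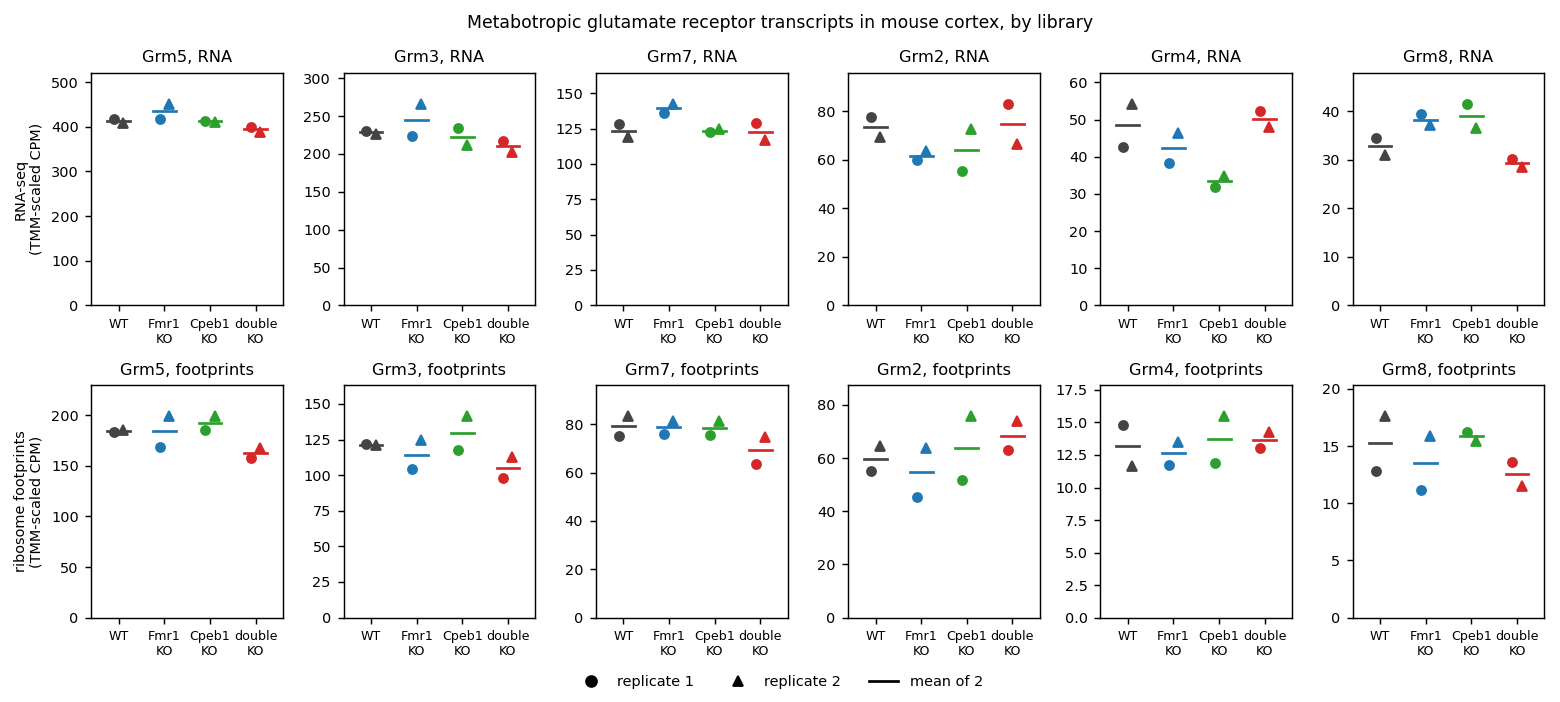
CPM of each receptor (columns) in RNA-seq (top row) and footprints (bottom row), by genotype on the horizontal axis, each vertical axis starting at 0. Circles are replicate 1, triangles replicate 2 and lines the mean of 2 libraries. Grm4 RNA was lowest in the Cpeb1 KO, and Grm8 RNA was higher in both single knockouts than in the other 2 genotypes. Grm5, Grm3, Grm7 and Grm8 footprints were lowest on average in the double KO.

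The ratio of footprint TPM to RNA TPM, taken between libraries of the same genotype and number, shows how many footprints a transcript carried for its abundance. For the comparison with all genes, each gene was taken as its mean log2 ratio over the 8 pairs of libraries. Over the 12005 genes with at least 10 counts in every library the median of these was a ratio of 0.654. Percentages of genes below a receptor use that mean, while the receptor ratios given here are medians over the pairs. Grm2 had a median ratio of 0.696 over the 8 pairs of libraries, from 0.517 to 0.810, near the middle of all genes (50.8% of genes were lower). The other 5 receptors were below the middle in every pair of libraries. Grm7 had a median ratio of 0.447, Grm3 of 0.382, Grm5 of 0.323 and Grm8 of 0.307. Grm4 was the lowest at 0.222, from 0.153 to 0.320, and only 6.99% of genes had a lower ratio. The most abundant receptor, Grm5, had fewer footprints per transcript than Grm2, and only 16.04% of genes lay below it.

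Other receptors of the same structural class (class C) also lay below the median of all genes. The GABA-B receptor subunits Gabbr1 and Gabbr2 had mean ratios of 0.356 and 0.320, the orphan receptors Gpr158 and Gprc5b 0.414 and 0.594, and the calcium-sensing receptor Casr 0.558. Casr was near 1 TPM of RNA, so its ratio rests on few counts. In all, 5 of 5 measured class C receptors outside the family were below the median. No test was made of the ratios between genes.

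**Figure D2:**
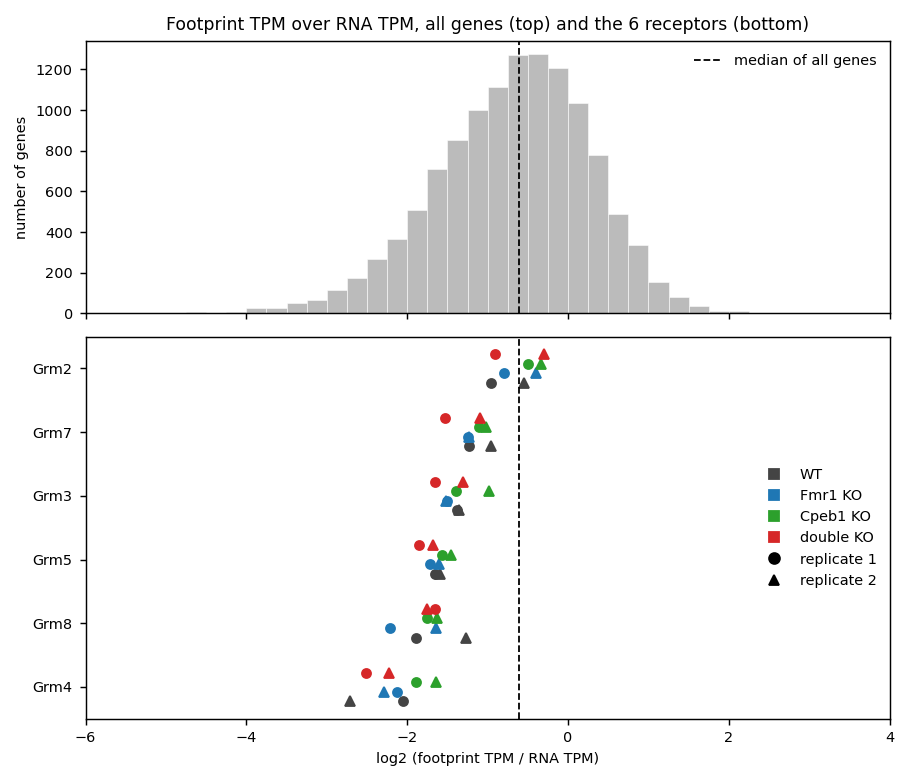
Top, number of genes by log2 ratio of footprint TPM to RNA TPM (mean over 8 pairs of libraries, 12005 genes). Bottom, the same ratio of each receptor in each pair, coloured by genotype, with the median of all genes as a dashed line; Grm2 straddles the line and the other 5 receptors lie to its left in every pair.

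The comparison of Fmr1 KO with WT asks whether loss of FMRP changed the receptors at the centre of the mGluR theory, and none of the 6 was called in RNA or in footprints. In WT, Grm5 RNA stood at 418 and 409 CPM, and in Fmr1 KO at 418 and 452 CPM. The fitted log2 change was 0.07 ± 0.10 (SE), with a 95% interval of −0.15 to 0.30 and an adjusted p of 0.839 by edgeR. Grm5 footprints were at 183 and 186 CPM in WT and at 169 and 200 CPM in Fmr1 KO. One knockout library lay below both WT libraries and the other above them, and the log2 change was −0.0068 ± 0.0754, with an interval of −0.17 to 0.16 (adjusted p = 0.999, edgeR). On the linear scale that interval runs from 0.889 to 1.11 times the WT level.

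The other 5 receptors gave no call either. In RNA, Grm2 and Grm4 had log2 values of −0.26 ± 0.16 and −0.19 ± 0.14, while Grm3, Grm7 and Grm8 had values of 0.10 ± 0.12, 0.17 ± 0.11 and 0.22 ± 0.13 (SE). Adjusted p-values for RNA ran from 0.647 to 0.839 (edgeR). The 6 footprint values were below 0 and small, with Grm2 at −0.15 ± 0.10, Grm3 at −0.10 ± 0.09, Grm4 at −0.07 ± 0.16, Grm7 at −0.0073 ± 0.0823 and Grm8 at −0.16 ± 0.17 (SE). Of these signs, that of Grm2 held without each library in turn and the other 5 did not, and Grm3, Grm4, Grm5 and Grm7 had opposite signs in numbers 1 and 2. Adjusted p-values for footprints ran from 0.983 to 0.999 (edgeR). Libraries of Fmr1 KO and WT did not overlap for 4 of 6 receptors in RNA, namely Grm2, Grm5, Grm7 and Grm8, and for 0 of 6 in footprints, where 41.3% and 30.7% of all genes tested did not overlap. For Grm5 RNA this was nearly a tie, with the lower Fmr1 KO library at 417.86 CPM and the higher WT library at 417.764. At an unadjusted p under 0.05 none of the 6 passed in either assay (8.09% of all genes in RNA and 5.09% in footprints did), and DESeq2 called none. Few genes of any kind were called in this comparison, 0.00753% of 13287 genes in RNA and 0.0581% of 13774 in footprints.

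**Figure D3:**
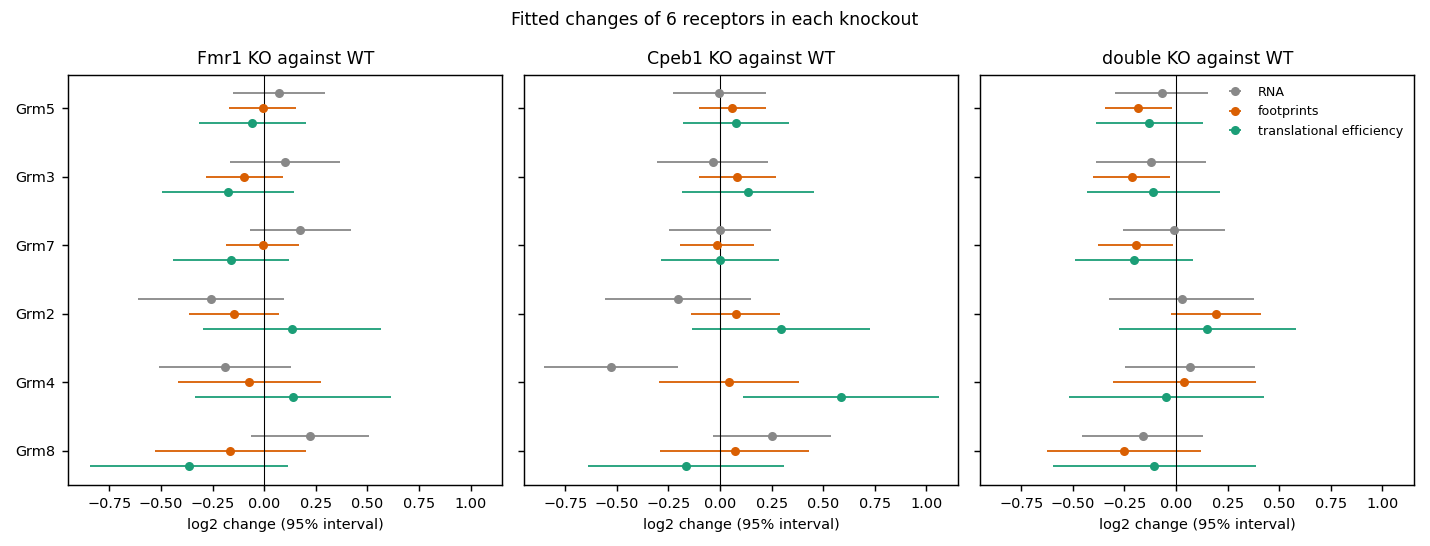
Fitted log2 change with its 95% interval for each receptor in Fmr1 KO, Cpeb1 KO and double KO against WT, for RNA (grey), footprints (orange) and translational efficiency (green). Against WT, the intervals that leave out 0 are those of Grm4 RNA and efficiency in Cpeb1 KO and of Grm5, Grm3 and Grm7 footprints in double KO, and no receptor was called.

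In Cpeb1 KO against WT, Grm4 RNA had the largest difference of the 6 and was not called. The WT libraries held 42.7 and 54.3 CPM of Grm4 RNA, against 38.3 and 46.4 in Fmr1 KO, 31.8 and 34.9 in Cpeb1 KO and 52.4 and 47.9 in the double KO. Both Cpeb1 KO libraries were below every other library. The log2 change against WT was −0.53 ± 0.15 (SE), with an interval of −0.85 to −0.20 and an adjusted p of 0.274 by edgeR. Grm4 footprints did not show this order: they were at 14.8 and 11.6 CPM in WT and at 11.9 and 15.5 CPM in Cpeb1 KO, with a log2 value of 0.04 ± 0.16 (SE, adjusted p = 1.00, edgeR). The double KO against Cpeb1 KO gave 0.60 ± 0.15 for Grm4 RNA (adjusted p = 0.108, edgeR). In the authors' deposited table for that comparison Grm4 had a log2 value of 0.387 and an adjusted p of 0.0247. Deposited values, here and below, come from the authors' own processing of the same libraries. They are thus no independent support, and their log2 values need not match those of edgeR in size. The share of all genes under 0.05 in the deposited tables is not given here.

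Striatal markers were lowest in RNA of the same genotype as Grm4. The summed RNA level of Drd1, Drd2, Adora2a, Ppp1r1b and Penk, all 5 of them above 1 TPM in every library, was 529 and 321 TPM in Cpeb1 KO. It was 647 and 866 TPM in WT, 658 and 671 in Fmr1 KO and 673 and 704 in the double KO. Both Cpeb1 KO libraries were thus again below every other. Within Cpeb1 KO the library with less Grm4 RNA had the higher striatal sum. In footprints the sums were 1389 and 1316 TPM in Cpeb1 KO and 1336 and 1167 in WT, which overlapped. Summed RNA of the dentate gyrus markers Prox1 and Dsp was also lowest in Cpeb1 KO. It was at 5.10 and 5.92 TPM there and at 6.37 TPM or more in every other library. The part of striatal tissue in the Grm4 values was not tested. In bulk cortex, fewer cells of a type and less RNA per cell cannot be told apart.

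The other receptors were not called in Cpeb1 KO. Grm8 RNA had a log2 value of 0.25 ± 0.13 against WT (SE, adjusted p = 0.498, edgeR) and its footprints 0.07 ± 0.17 (SE, adjusted p = 1.00, edgeR). For Grm2, Grm3, Grm5 and Grm7 the log2 values ran from −0.21 to 0.00047 in RNA and from −0.01 to 0.08 in footprints. Grm4 was the 1 receptor with an unadjusted p under 0.05 in RNA (11% of all genes), and there was none in footprints (3.88%). Cpeb1 KO and WT did not overlap for Grm4 and Grm8 RNA, 2 of 6 receptors against 40.9% of all genes, and overlapped for all 6 in footprints, where 29.9% of all genes did not. By edgeR 0% of all genes were called in RNA and 0.0799% in footprints. DESeq2 also called none of the 6 in either assay.

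The authors also set both single knockouts against WT and double KO as 1 group, a contrast in which loss of 1 gene is compared with the loss of neither or both. This was the 1 comparison of 17 with a call among the receptors. The WT libraries held 34.5 and 31.0 CPM of Grm8 RNA, against 39.4 and 37.1 in Fmr1 KO, 41.5 and 36.5 in Cpeb1 KO and 30.1 and 28.5 in the double KO. All 4 single-knockout libraries were above all 4 others. The log2 difference was 0.32 ± 0.09 (SE, n = 4 against 4; adjusted p = 0.0475, edgeR), a rise of 1.24-fold. The call lay at the threshold: it was lost in 13 of 15 other settings, where the log2 value stayed between 0.26 and 0.36 and adjusted p ranged from 0.0455 to 0.186 over all 15. It was lost without each of 7 of the 8 libraries in turn, and held without replicate 2 of WT.

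Grm4 RNA went the other way in the same contrast, with a log2 difference of −0.38 ± 0.11 (SE, adjusted p = 0.0511, edgeR), and its groups overlapped. It passed the threshold in 6 of 15 other settings, DESeq2 among them. Grm2 RNA had −0.25 ± 0.10 (SE, adjusted p = 0.145, edgeR), and Grm3, Grm5 and Grm7 had values from 0.07 to 0.09. Thus 3 of 6 receptors had an unadjusted p under 0.05, against 25.7% of all genes, and 1 of 6 had groups that did not overlap, against 12.2%. In the authors' deposited table, coded in the opposite direction, Grm4 had a log2 value of 0.302 with an adjusted p of 0.0116 and Grm8 −0.225 with 0.0499. The share of all genes under 0.05 there is not given. No receptor was called in footprints of this contrast. The log2 values were 0.08 ± 0.14 for Grm8 (SE, adjusted p = 0.903) and −0.03 ± 0.11 for Grm4 (SE, adjusted p = 0.958, edgeR), and the other 4 ran from −0.13 to 0.11. The 4 libraries of each side overlapped for all 6 receptors, and 3.06% of all genes did not overlap. None had an unadjusted p under 0.05 there (6.95% of all genes), and DESeq2 called none.

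The pooled contrast called many genes in RNA, 7.31% of those tested, and 0% in footprints, so 1 call among 6 receptors is read against that background. The background itself moved in either direction with single libraries, from 971 genes called with all 8. Without replicate 1 the count was 140 for Fmr1 KO, 161 for Cpeb1 KO, 260 for the double KO and 300 for WT. Without replicate 2 it was 578 for Fmr1 KO, 973 for Cpeb1 KO, 1278 for WT and 1433 for the double KO. Among the 81 pathway genes tested 11 were called (13.6%), 2 higher and 9 lower in the single knockouts. These 11 were chosen for naming after their values were seen. The largest were the postsynaptic scaffolds Shank1, Shank3 and Shank2, which link the receptors to the actin skeleton, at log2 differences of −1.19, −1.05 and −0.65. The scaffold Homer1, which binds Grm5 directly, rose by 0.38, and the inhibitory G protein subunit Gnai3 by 0.36. The remaining 6 that fell were Adcy5, Elfn2, Camk2a, Gnao1, Dgkz and Adrbk1, at −0.56 to −0.28. Footprints of Shank1 and Shank3 gave −0.0033 and −0.01 in the same contrast. The same contrast in the fit of 4 genotypes is the test of whether the effect of Fmr1 loss depended on Cpeb1. There Grm8 RNA had an adjusted p of 0.0823 and Grm4 RNA of 0.0650 (edgeR), and no receptor was called in RNA or footprints, against 2.06% and 0.0653% of all genes.

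In the double KO against WT, RNA of the receptors gave no call, with log2 values from −0.16 (Grm8) to 0.07 (Grm4) and adjusted p-values from 0.966 to 0.996 (edgeR). Both double KO libraries were below both WT libraries for Grm3, Grm5 and Grm8 RNA, 3 of 6 receptors against 29.7% of all genes that did not overlap. The log2 values were −0.12 ± 0.12 for Grm3 and −0.07 ± 0.10 for Grm5 (SE). None had an unadjusted p under 0.05 (4.23% of all genes), DESeq2 called none, and 0.00753% of all genes were called. Footprints of 3 receptors gave unadjusted p-values under 0.05. Grm3 footprints were at 97.8 and 113 CPM in the double KO and at 122 and 121 CPM in WT, a log2 change of −0.21 ± 0.09 (SE, adjusted p = 0.180, edgeR). Grm5 footprints were at 158 and 167 CPM in the double KO, below both WT libraries, with a log2 change of −0.18 ± 0.08 (SE, adjusted p = 0.191, edgeR). Grm7 footprints were at 63.6 and 74.9 CPM against 74.9 and 83.5 CPM in WT, where the higher double KO library was just below the lower WT library. Its log2 change was −0.20 ± 0.08 (SE, adjusted p = 0.198, edgeR). For these 3 of 6 receptors the groups did not overlap and the unadjusted p was under 0.05. Over all genes 52.4% did not overlap and 21% had such a p. None of the 3 was called by edgeR or DESeq2, and 2.65% of all genes were called.

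Grm2, Grm4 and Grm8 footprints overlapped WT in the double KO. Grm2 footprints were at 63.0 and 73.8 CPM against 55.0 and 64.7 CPM in WT, a log2 value of 0.19 ± 0.10 (SE, adjusted p = 0.291, edgeR). Grm8 footprints gave −0.25 ± 0.17 (SE, adjusted p = 0.436, edgeR) and Grm4 footprints 0.04 ± 0.16 (SE, adjusted p = 0.916, edgeR). Libraries numbered 2 had more Grm2, Grm5 and Grm7 footprints than libraries numbered 1 in all 4 genotypes, and the model takes this number as a block. Within number 1 the log2 ratio of double KO to WT was −0.32 for Grm3, −0.21 for Grm5 and −0.24 for Grm7, and within number 2 it was −0.10, −0.15 and −0.16.

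Against Cpeb1 KO the same receptors came nearer to the threshold. Grm3 footprints were at 117 and 142 CPM in Cpeb1 KO, above both double KO libraries, and the log2 change in the double KO was −0.30 ± 0.09 (SE, adjusted p = 0.0607, edgeR). Grm5 footprints were at 186 and 200 CPM in Cpeb1 KO, with a log2 change of −0.24 ± 0.08 (SE, adjusted p = 0.0772, edgeR). In the authors' deposited table Grm3 had −0.255 with an adjusted p of 0.0261 and Grm5 −0.207 with 0.0350, again without a share of all genes. DESeq2 called Grm3 here, and edgeR called both once either WT footprint library was left out of the fit. Grm8 footprints had the lowest value, −0.32 ± 0.17 (SE, adjusted p = 0.266, edgeR), and Grm7 had −0.18 ± 0.08 (SE, adjusted p = 0.197, edgeR), while Grm2 and Grm4 had 0.12 and −0.0038. Groups did not overlap for Grm3, Grm5, Grm7 and Grm8, 4 of 6 receptors against 52.3% of all genes. By the main test 0 of 6 receptors were called, against 5.6% of all genes. The share of all genes called by DESeq2, which called Grm3, is not given here.

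Against Fmr1 KO, Grm2 footprints gave the clearest difference, with 63.0 and 73.8 CPM in the double KO and 45.4 and 63.9 CPM in Fmr1 KO. These overlapped, and the log2 change was 0.34 ± 0.10 (SE, adjusted p = 0.149, edgeR). Within numbers 1 and 2 the log2 ratio was 0.47 and 0.21. It was called without either WT library and in the fit of these 2 genotypes alone. Grm5 and Grm7 footprints had −0.18 ± 0.08 and −0.19 ± 0.08 (SE) there, and Grm3, Grm4 and Grm8 ran from −0.12 to 0.11. Groups did not overlap for Grm5 and Grm7, 2 of 6 receptors against 43.2% of all genes. No receptor was called against 0.334% of all genes, and DESeq2 called none.

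RNA of the double KO gave no receptor call against either single knockout, with a background of 0% against Fmr1 KO and 0.00753% against Cpeb1 KO. Grm8 RNA was lower in the double KO in both, by log2 values of −0.38 ± 0.13 against Fmr1 KO (SE, adjusted p = 0.220, edgeR) and −0.41 ± 0.13 against Cpeb1 KO (SE, adjusted p = 0.140, edgeR). These comparisons share the double KO libraries. The other receptors ran from −0.22 to 0.29 against Fmr1 KO, and, Grm4 aside, from −0.08 to 0.23 against Cpeb1 KO. RNA groups did not overlap for 6 of 6 receptors against Fmr1 KO and for 3 of 6 against Cpeb1 KO, where 43% and 43.5% of all genes did not overlap.

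Between the single knockouts no receptor was called (background 0.00753% in RNA and 0.0581% in footprints). In Fmr1 KO against Cpeb1 KO, Grm4 RNA had 0.34 ± 0.15 (SE, adjusted p = 1.00, edgeR) and the other 5 receptors −0.05 to 0.17. Grm2 footprints had −0.22 ± 0.10 (SE, adjusted p = 0.990, edgeR) and the other 5 receptors −0.23 to 0.0069. Groups did not overlap for 3 of 6 receptors in RNA and 0 of 6 in footprints, against 24.6% and 29.8% of all genes. At an unadjusted p under 0.05, 1 of 6 receptors passed in RNA against Fmr1 KO (15.7% of all genes), 2 in RNA against Cpeb1 KO (19.2%) and 1 in RNA between the single knockouts (1.86%). In footprints 3 passed against Fmr1 KO (15.9%), 3 against Cpeb1 KO (24.6%) and 1 between the single knockouts (4.89%). Over these 6 comparisons DESeq2 made no call but that of Grm3.

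Markers of astrocytes, microglia and oligodendrocytes were also lower in double KO footprints than in WT. The summed footprint level of 6 astrocyte markers was 785 and 871 TPM in the double KO and 897 and 1030 TPM in WT, while their RNA was at 1180 and 1103 TPM in the double KO and 1002 and 910 in WT. Microglial markers were at 15.8 and 21.1 TPM of footprints in the double KO and 27.2 and 30.3 in WT, and oligodendrocyte markers at 3192 and 2831 against 3694 and 3945 TPM. RNA sums of both lists overlapped between these genotypes. Microglial RNA was at 30.95 and 32.75 TPM in the double KO and 23.76 and 31.4 in WT. Oligodendrocyte RNA was at 1908 and 1774 TPM in the double KO and 1684 and 2259 in WT. In Fmr1 KO the oligodendrocyte sums were 3142 and 3180 TPM of footprints, also below both WT footprint libraries. All 14 of these markers were above 1 TPM in every library. Footprint sums of oligodendrocyte precursor markers overlapped, at 9.75 and 12.12 TPM in the double KO and 10.79 and 13.66 in WT. Neuronal marker footprints averaged 9104 TPM in the double KO and 8825 TPM in WT. The part of these cell types in the Grm3, Grm5 and Grm7 values was not tested.

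Translational efficiency, the change of footprints relative to that of RNA in one model, gave no call for any receptor in any knockout. For Grm5 in Fmr1 KO the log2 change in efficiency was −0.06 ± 0.12 (SE), with an interval of −0.32 to 0.20 and an adjusted p of 0.940 (edgeR). Grm8 had the lowest value in that knockout, at −0.36 ± 0.23 (SE, adjusted p = 0.767, edgeR), and the other 4 ran from −0.17 to 0.14. The largest was Grm4 in Cpeb1 KO, at 0.58 ± 0.22 (SE, adjusted p = 0.494, edgeR), where the other 5 ran from −0.17 to 0.30. In the double KO the 6 values ran from −0.20 (Grm7) to 0.15 (Grm2), each with an adjusted p of 1 (edgeR). The Grm4 value was the 1 of 18 with an unadjusted p under 0.05, against 9.05% of all genes in Cpeb1 KO, 7.6% in Fmr1 KO and 3.48% in the double KO. The background by edgeR was 0.0212% of genes called in Fmr1 KO and 0.00707% in each of the other 2 knockouts. DESeq2 also called no receptor.

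The genes around the receptors were taken as 7 lists: Gq signalling, receptor scaffolds, Gi/o signalling, desensitisation, proteins made after group I stimulation, glutamate uptake and vesicle loading, and other class C receptors. Against WT none of 81 listed genes was called in RNA in any knockout, none of 80 in footprints of either single knockout, and none of 83 in efficiency. In double KO footprints 3 of 80 were called (3.75%, against 2.65% of all genes), 1 higher and 2 lower. The median log2 change of the 80 was 0.05, and that of all genes was −0.0010.

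The gene that rose was Arc, an immediate early gene whose protein is made at synapses after group I receptor stimulation and drives removal of AMPA receptors. Arc footprints were at 160 and 249 CPM in WT, 185 and 244 in Fmr1 KO, 270 and 338 in Cpeb1 KO and 390 and 410 in the double KO. Both double KO libraries were above every other library. The log2 change against WT was 1.00 ± 0.10 (SE, adjusted p = 0.000619, edgeR), and Arc was called in all 14 other settings. Arc RNA reached 161 and 51.8 CPM in WT, and 227 and 67.4 in the double KO, so its replicates differed more than its genotypes, and the change in efficiency was not called (0.54 ± 0.59, SE; adjusted p = 1, edgeR). The other 4 proteins of that list, Map1b, Ptpn5, App and Camk2a, were not called against WT.

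The 2 genes that fell in double KO footprints were Slc1a3 and Gprc5b. Slc1a3, the astrocyte glutamate transporter GLAST, was at 215 and 251 CPM in the double KO and at 267 and 315 in WT, a log2 change of −0.32 ± 0.08 (SE, adjusted p = 0.0448, edgeR). It is also 1 of the 6 astrocyte markers above. Gprc5b, an orphan class C receptor, was at 27.7 and 30.7 CPM in the double KO and at 40.4 and 41.0 in WT, a log2 change of −0.48 ± 0.11 (SE, adjusted p = 0.0398, edgeR). Groups overlapped for neither gene. These calls were lost in 9 of 14 and 7 of 14 other settings, including the fit without the block and the removal of either double KO library. Their RNA was not lower, with log2 values of 0.28 for Slc1a3 and 0.19 for Gprc5b (adjusted p = 0.966 for both, edgeR).

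**Figure D4:**
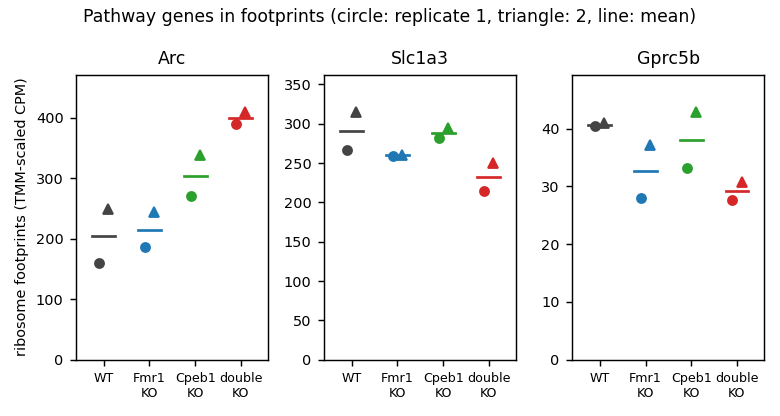
Footprint CPM of Arc, Slc1a3 and Gprc5b by genotype, with circles for replicate 1, triangles for replicate 2 and lines for the mean of 2 libraries. Arc was highest in both double KO libraries, at 390 and 410 CPM, and Slc1a3 and Gprc5b were below both WT libraries there.

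In the 4 lists with no call against WT, the gene with the smallest p was as follows. Prkcd, a diacylglycerol-activated kinase of the Gq list that is also a thalamic marker, had a footprint log2 value of 0.57 ± 0.15 in Fmr1 KO (SE, adjusted p = 0.503, edgeR). Grasp, a scaffold that binds group I receptors, had a footprint value of 0.33 ± 0.08 in the double KO (SE, adjusted p = 0.0507, edgeR) and passed in 4 of 14 other settings. Adcy5, the adenylyl cyclase most abundant in striatum, had an RNA value of −0.90 ± 0.16 in Cpeb1 KO (SE, adjusted p = 0.225, edgeR), in the libraries where the striatal markers were lowest. Adrbk1, the receptor kinase also called Grk2, had an efficiency value of 0.40 ± 0.14 in Fmr1 KO (SE, adjusted p = 0.572, edgeR).

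Among themselves, Grm3 and Grm5 varied most alike across libraries. After removal of the mean of each replicate number, their correlation over 8 libraries was 0.94 in RNA and 0.89 in footprints. Grm4 and Grm8 had a correlation of −0.81 in RNA and −0.34 in footprints. These values describe 8 libraries that share genotypes and scaling. Among 11446 genes, those most like each receptor in footprints by the same measure had correlations of 0.963 or higher with it. These genes were picked as the 2 highest of 11446 over only 8 libraries. High values follow from such a search, were not tested and do not show a link to the receptor. For Grm5 they were Pdzd11 and Zfand1, whose RNA correlations with it were 0.029 and −0.024, and for Grm3 Lrrc8d and Dhcr7 (−0.041 and −0.387 in RNA). For Grm2 they were Dlx5 and Ehd1 (0.286 and 0.639 in RNA), and for Grm7 Rbbp7 and Epb4.1l4b (0.351 and −0.321 in RNA). For Grm4 they were Fbxl17 and Pak7 (0.756 and 0.170 in RNA), and for Grm8 Pin4 and Pxdn (0.826 and −0.050 in RNA). By Spearman's rank correlation, 1 of these 12 genes, Dlx5, was again among the 2 most alike.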

How the data were processed

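Cytoplasmic RNA-seq and ribosome footprint libraries (8 of each, 2 per genotype) were analysed. Per the file headers, the authors deposited 1 RSEM gene table per library, with expected counts, TPM (scaled for transcript length and library size), FPKM (not used) and lengths. The submitters' processing notes name cutadapt, Bowtie2, TopHat2, RSEM and DESeq2, and the mm10 build. The authors' deposited tables of comparisons hold log2 changes and p-values, without samples.

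Expected counts were rounded and tested with edgeR 4.0.16 (R 4.3.3) by its quasi-likelihood test, with TMM scaling, filterByExpr at a minimum count of 10, the replicate number as a block and Benjamini-Hochberg adjustment over all genes tested. A gene was called at an adjusted p under 0.05. Translational efficiency was the assay by genotype interaction over all 16 libraries, with the replicate number as a separate block in each assay. No term joined RNA and footprint libraries of the same lysate, so the model treated them as independent. Standard errors and 95% intervals were derived from the test's F statistic and its degrees of freedom. The fits were tested on simulated data.

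Alternatives were no block, RLE scaling, other filters, DESeq2 1.42.0, fits of only the genotypes compared and leaving out each library. The 6 receptors, the pathway lists and the marker lists were chosen with earlier results of these data known. All 6 receptors are covered in each comparison, singly or by the range of the others. In the pooled contrast the low-count filter was first applied over the pooled groups, and the filter over the 4 genotypes, used in the other fits, was adopted after that result was seen. From the lists, genes called against WT are named, and otherwise the gene with the smallest p. Other genes of the receptor family were not analysed here.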

Additional observations from a re-analysis of the deposited data

Results flagged for a closer look

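No receptor gave a different response to Fmr1 loss with and without Cpeb1 by the test of that difference, where 2.06% of all genes were called in RNA. Among the pathway genes named for their pooled RNA values, 5 did, each from 2 libraries per genotype. This test is the pooled contrast again, with the sign turned and fitted on 4 genotypes, so it is no independent support for genes named by their pooled values. The log2 effect of Fmr1 loss on RNA where Cpeb1 was lost, minus that where Cpeb1 was present, was 2.38 ± 0.46 (SE, adjusted p = 0.0405) for Shank1, 2.09 ± 0.39 (adjusted p = 0.0405) for Shank3 and 1.30 ± 0.28 (adjusted p = 0.0436) for Shank2. It was 1.19 ± 0.22 (adjusted p = 0.0405) for Adcy5 and 0.89 ± 0.19 (adjusted p = 0.0416) for Camk2a, all by edgeR in the fit of 4 genotypes. These SEs are those left after the replicate block, and for some genes the libraries of a genotype lay far apart. Camk2a RNA was at 900 ± 310 CPM in WT, 684 ± 185 in Fmr1 KO, 691 ± 109 in Cpeb1 KO and 1027 ± 433 in the double KO (SD, n = 2). Shank1 RNA was at 290 ± 132 CPM in Cpeb1 KO and 682 ± 249 in the double KO (SD, n = 2).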

How the results depend on the processing

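Of 261 recomputed counts of called receptors over 17 comparisons, 246 equalled the main count. In the pooled RNA contrast the count was 0 with no replicate block (380 genes called in all) and 0 in the fit of 4 genotypes (274), and 0 to 1 with single libraries left out. Under RLE scaling, no filter, at least 10 counts in every library, or DESeq2 the 1 receptor called there was Grm4, not Grm8; the filter over the pooled groups also called Grm8. That filter was the one first fitted, and the filter reported as main was adopted after its result was seen. In footprints, double KO against Cpeb1 KO gave 1 call with DESeq2 and 1 in the fit of the 2 genotypes (Grm3 in both), and 0 to 2 with single libraries left out. Double KO against Fmr1 KO gave 1 in the fit of the 2 genotypes and 0 to 1 with single libraries left out, and RNA of double KO against Cpeb1 KO gave 0 to 1.

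Of 102 receptor log2 values over all comparisons, 61 kept their sign in every setting and 41 changed it in at least 1, 38 of them only with a library left out. In Fmr1 KO against WT, Grm3 RNA ranged from −0.076 to 0.27, and footprints from −0.22 to 0.032 for Grm3, −0.35 to 0.24 for Grm4, −0.094 to 0.078 for Grm5, −0.040 to 0.026 for Grm7 and −0.41 to 0.048 for Grm8. Grm5 efficiency there ranged from −0.15 to 0.032. In Cpeb1 KO against WT footprints ranged from −0.24 to 0.35 for Grm4 and −0.12 to 0.27 for Grm8. In double KO against WT Grm4 ranged from −0.15 to 0.26 in RNA and −0.23 to 0.36 in footprints. In pooled footprints the ranges were −0.13 to 0.047 for Grm4 and −0.034 to 0.21 for Grm8.

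Same-numbered libraries of different genotypes were compared by their differences between numbers 1 and 2, with correlations from −0.04 to 0.29 in RNA and −0.07 to 0.33 in footprints. The numbers are thus not shown to pair the libraries, and the replicate block changed 1 count of receptors, the pooled RNA one. The order of levels was the same 6 of 6 ranks with CPM per kb. With 2 libraries per group, a receptor that was not called may still differ by any amount within its 95% interval.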
